A study of Rattus norvegicus with 12 samples.

Results

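Transcripts of 55 nuclear genes for mitochondrial ribosomal proteins were measured in cultured rat hippocampal neurons, at 67 spots of a nylon membrane array that carries 9600 spots of human cDNA clones. A spot was taken as a member when its clone carries exactly 1 gene symbol and that symbol begins with MRPL or MRPS and a number. Of the members, 40 spots (32 genes) carry an MRPL symbol, for the large subunit, and 27 spots (23 genes) carry an MRPS symbol, for the small subunit. A single spot represented 43 of the genes, and 12 genes had 2 spots from different clones, called here the brighter and the dimmer clone. All 55 symbols are also rat gene symbols in RefSeq. The clones are human and the hybridised RNA is from rat, so a spot can also take up signal from related rat transcripts.

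Hippocampal neurons from Sprague Dawley rat embryos of day 18.5 were grown for 12 days above a layer of glia, and RNA from 3 pooled coverslips was hybridised to 1 membrane per condition, as the labels give it. The study's methods describe RNA pooled over separate experiments instead, so what a single array stands for is not settled. Every culture, controls included, was first silenced for 3 h with 50 µM D-APV and 40 µM CNQX, which block glutamate receptors, and 100 nM TTX, which blocks sodium channels. Cultures then stayed silent (Block) or were made active with 50 µM bicuculline, which blocks inhibition, and 500 µM 4-aminopyridine, a blocker of potassium channels (BiC/4AP). The 2 states were sampled at 5, 30 and 60 min, without and with 25 µM actinomycin D (ActD), which stops transcription. This gives 12 conditions with 1 array each. Nothing in the labels says that arrays came from separate cultures. The p-values below measure the spread between pairs or sets of single arrays, which may be technical. That spread also holds any change of an effect between the times, states or ActD conditions that are pooled. In pooled cultures, fewer cells of a type and less RNA per cell cannot be told apart.

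The mitochondrial ribosome translates the few proteins that mitochondrial DNA encodes, all of them parts of the respiratory chain or of ATP synthase. Its RNAs come from mitochondrial DNA, whereas all of its proteins are encoded in the nucleus, made on cytoplasmic ribosomes and imported. Many have bacterial counterparts, such as MRPS12 at the decoding centre and MRPL12 of the stalk, and others, such as MRPL37, MRPL38 and MRPS33, are found only in mitochondrial ribosomes. MRPS30 and MRPS18A carry small-subunit symbols but sit in the large subunit of the mammalian particle.

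Promoters of many nuclear genes for mitochondrial proteins hold sites for NRF1, a transcription factor that acts on them. RefSeq promoters (rat build GRCr8, 250 bases before to 50 after the start) were found for 45 of the 55 genes. The NRF1 core, GCGCA followed by any base and GCGC, searched on both strands, occurred in 8 of these 45 promoters (17.8%) and in 4.25% of all 33469 rat promoters. The ETS core CCGGAAG occurred in 16 of the 45 (35.6%, against 8.75% of all), and the YY1 core AAGATGGC, whose letters hold a start codon, in 10 (22.2%, against 3.17%). Upstream NRF1 matches of 5 genes that differed between times below are shown, because these genes can be read beside their values. Each line gives 30 bases of the plus strand, with the matched core in capitals:
Mrpl30, chr9:47621079-47621108: tgacgccactGCGCCTGCGCcgtcttctat
Mrpl32, chr17:55260579-55260608: tttgacctgtGCGCATGCGCagggaacctg
Mrpl44, chr9:88554908-88554937: agaagcacttGCGCATGCGCactatgctag
Mrpl45, chr10:82804884-82804913: tagtttcattGCGCACGCGCgaacccattg
Mrpl57, chr15:36086361-36086390: cgcccgccctGCGCAGGCGCagacttttct
All 5 genes lie on the plus strand. Of 24 genes with a promoter and a time difference below, 5 held the NRF1 core, and of 21 without such a difference, 3 did. A match is only a description of the letters.

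Mitochondrial ribosomal protein spots were of moderate brightness. Their mean log2 intensity over the 12 arrays had a median of 5.87 and ran from 3.40 to 11.36, while the median of all spots was 6.21. The median member lay at percentile 39.3 of all spots, 25 of 67 members lay above the median of all spots, and 7 were among the 960 brightest spots. The spots of cytoplasmic ribosomal proteins, which build the ribosome outside mitochondria, had a median of 8.38 (152 spots), and those of the respiratory chain 6.48 (112 spots). Brightness on such an array depends on the clone as well as on the transcript, so these levels are not an order of abundance. The large-subunit and small-subunit spots had medians of 5.87 each.

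The brightest members were the brighter clones of MRPS12 (11.36) and MRPL24 (11.08), then MRPL30 (10.97), MRPL15 (10.38) and MRPS25 (10.04). The dimmest were MRPL58 (3.40), a ribosome-rescue factor that hydrolyses peptidyl-tRNA and is also known as ICT1, MRPL13 (3.81), MRPL44 (4.39), the dimmer clone of MRPL4 (4.45) and MRPS23 (4.69). Background was taken as the 95th percentile of 384 unlisted end positions of spot blocks on each array. By it, 61 to 67 of the 67 members were above background on an array, and 60 were so on all 12. MRPL58 was above background on only 4 arrays, and MRPL13 on 8. This background was a raw intensity of 10 on each 5 min array, 10 to 10.3 at 60 min and 11.2 to 20.4 at 30 min. Counts above it are therefore not comparable between times.

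**Figure D1:**
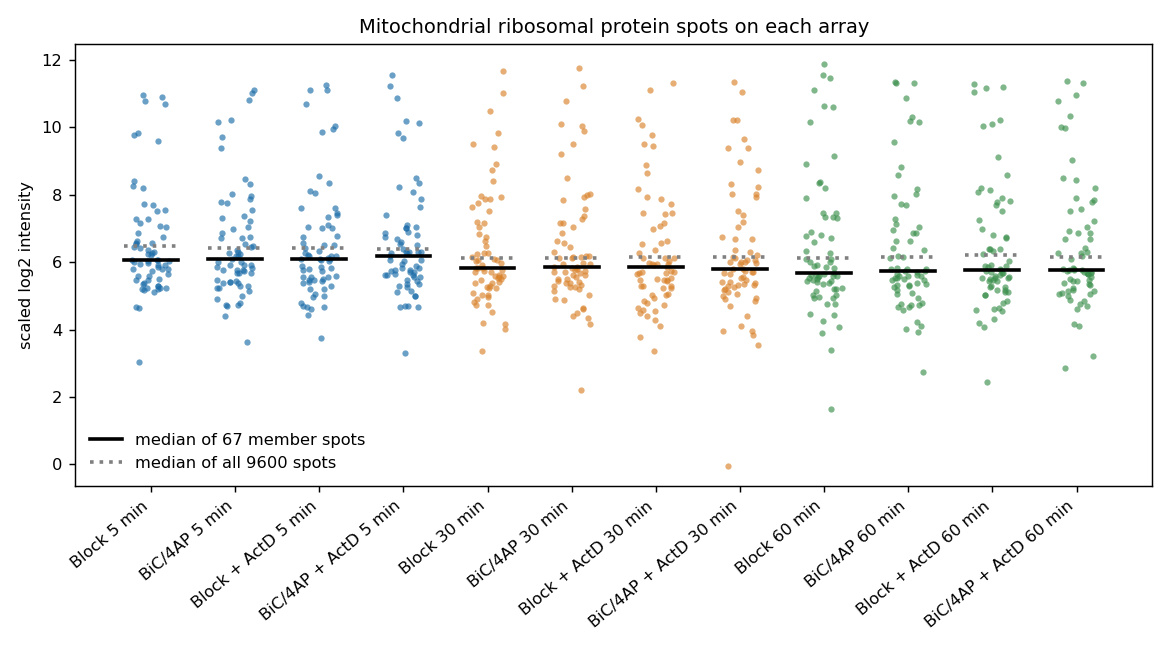
Scaled log2 intensity (vertical axis) of the 67 member spots on each of the 12 arrays, ordered by time, with the median of the members as a solid bar and the median of all 9600 spots as a dotted bar. The members' median stays below that of all spots on every array, and MRPL58 is the point near 0 in BiC/4AP + ActD at 30 min.

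For comparisons, each array was put on 1 scale by its z-score, the log2 intensity minus the array's mean and divided by its SD, then multiplied by the mean SD (2.15) and added to the grand mean (6.46). Values on this scale are called scaled log2 intensity. Differences were tested with limma over all 9600 spots and called at a Benjamini-Hochberg adjusted p under 0.05. Median raw intensity of all spots ran from 52.6 to 137 per array, and that of the members from 38.2 to 103. Arrays of the same time correlated at 0.958 to 0.973 over all spots (18 pairs), 5 min arrays with later ones at 0.899 to 0.944 (32 pairs). Column headers open with running numbers that are consecutive within each time, and their meaning is not stated. Each time has its own 4 arrays, so time and anything else that these share cannot be told apart. Spots of 9 of 16 neuronal marker genes had a median log2 intensity of 6.27 (highest ENO2, 8.20), and those of 4 of 10 astrocyte markers 6.57, GFAP at 6.97, 4 of 9 oligodendrocyte markers 5.94, 4 of 8 microglial markers 7.20 and 4 of 9 vascular or fibroblast markers 4.46. The part of cell types other than neurons in the results was not tested.

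The study asked which transcripts change with activity. No member was called between BiC/4AP and Block over the 6 pairs of arrays (0 of 67, with 0% of all spots called by limma), and 3 members had an unadjusted p under 0.05, against 498 of all spots. The members' median difference was -0.01, with that of all spots at -0.00, and 31 members were above 0 and 36 below. The 95% interval of a member's difference reached a median of 0.28 to either side.

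The member with the smallest p was MRPS33, a small-subunit protein without a bacterial counterpart. Its scaled log2 intensity in Block and BiC/4AP was 7.28 and 7.80 at 5 min, 8.42 and 8.52 at 30 min, and 8.39 and 8.59 at 60 min. With ActD it was 7.62 and 8.08, 8.63 and 8.75, and 8.21 and 8.43. BiC/4AP was thus the higher array in 6 of 6 pairs. The 2 groups overlapped, also among the 30 and 60 min arrays alone, and the 5 min arrays were lower in both. The difference was 0.27 (SE 0.09), with an adjusted p of 0.904 in limma.

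MRPS18A was also higher in 6 of 6 pairs, by 0.21 (SE 0.07). These were the only members with the same direction in all 6 pairs, which 3.82% of all spots had. The dimmer clone of MRPL28, a large-subunit protein, differed by 0.48 (SE 0.19) and was higher in 4 of 6 pairs, while its brighter clone differed by -0.04. MRPS5 differed by 0.23 and the brighter clone of MRPL1 by 0.18. On the other side were MRPL15 at -0.28, MRPS22, mutated in a human mitochondrial disease, at -0.28, the dimmer clone of MRPL20 at -0.21, MRPS26 at -0.20 and MRPL58 at -0.84 (SE 0.60). Adjusted p-values of these members were 0.904 to 0.906, apart from the brighter clone of MRPL28 (0.961).

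In single conditions a few members stood apart. MRPL40, a large-subunit protein whose gene lies in the region deleted in DiGeorge syndrome, was picked after its values were seen. It read 8.31 in BiC/4AP at 5 min and 5.93 in Block at 5 min, while the other 10 arrays lay between 5.73 and 6.43. With ActD the 5 min pair read 5.94 and 5.82. The high value thus came from 1 array, has no replicate, and gave a mean activity difference of 0.46 (SE 0.33).

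Activity differences with and without ActD were also tested apart, since the study asked which changes remain when transcription is stopped. No member was called without ActD (0% of all spots), with ActD (0.0104%) or for the difference between the 2 (0%). In limma, 300, 434 and 283 of all spots had an unadjusted p under 0.05, as did 3, 0 and 3 members. The last were MRPS28, whose activity difference was -0.32 without and 0.30 with ActD, MRPS7, at 0.28 and -0.35, and the brighter clone of MRPS2, each with an adjusted p of 0.998 for the difference. Over the 6 pairs, the members' median lay between -0.01 and 0.06, and between 32 and 42 of the 67 were above 0.

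The study's own criterion uses the z-fold. It was taken here as the change in z-score from Block to BiC/4AP in units of its SD among the 9600 spots. A transcript counts as co-regulated when the z-fold passes 1.4 one way both in the absence and in the presence of ActD. No member met it at 5 min (1.07% of all spots did, 0.531% higher and 0.542% lower) or at 60 min (0.927%), but at 5 min 3 did with the 10th percentile added before the log, 3 without the 3200 dimmest spots and 1 without unannotated spots. At 30 min 1 member did, in the lower direction (1.05% of all spots, 0.438% lower), with 2 when unannotated spots were left out and 0 when the z-score change was not divided by its SD, and no member passed in opposite directions at any time (1.22%, 1.64% and 1.27% of all spots at 5, 30 and 60 min). The member was MRPL58, with z-folds of -2.04 and -7.28. Its scaled log2 intensity at 30 min was 3.38 in Block and 2.21 in BiC/4AP, and 4.12 and -0.03 with ActD. All 4 of these values lie below background, the lowest at a raw intensity of 1.09 against a background of 18.8, so the sizes of the z-folds of MRPL58 are not measured changes. MRPL40 had z-folds of 4.14 without and 0.21 with ActD at 5 min.

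**Figure D2:**
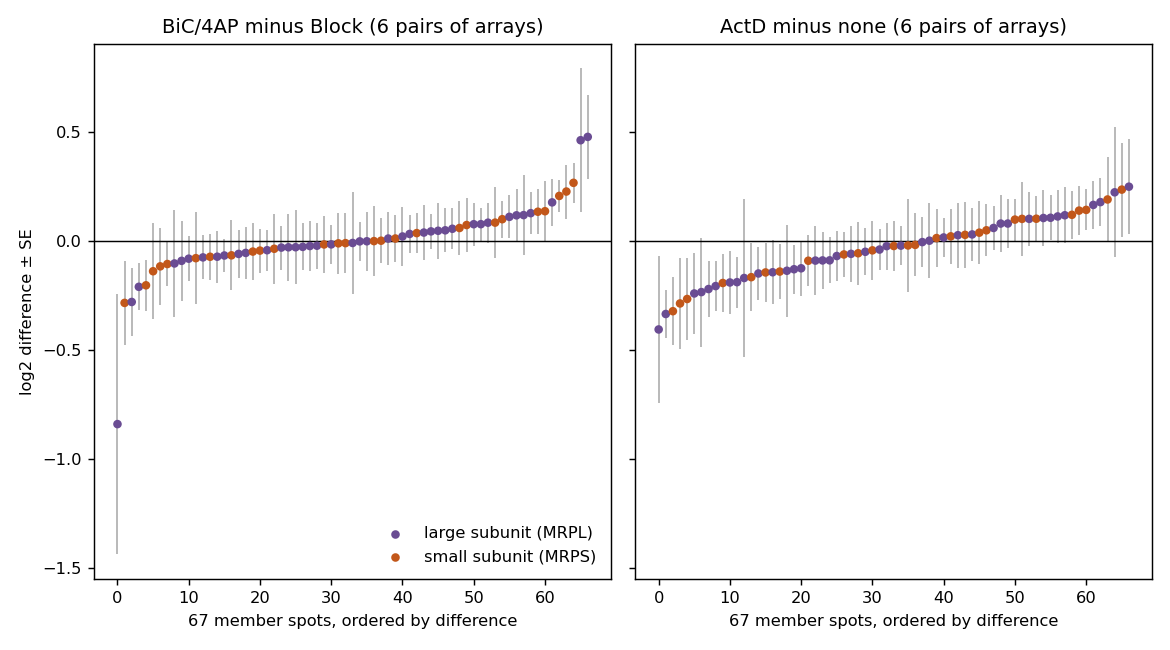
Log2 difference with its SE (vertical axis) for each of the 67 member spots, ordered by size, for BiC/4AP minus Block (left) and ActD minus none (right), each over 6 pairs of arrays. Most members lie within 0.3 of 0 on both sides, MRPL58 is the lowest point on the left at -0.84 and no point was called.

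ActD moved no member past the threshold (0 of 67, with 0.0104% of all spots called by limma). In limma, 1 member had an unadjusted p under 0.05, against 201 of all spots. The median difference was -0.02, and that of all spots 0.00. This member was MRPL16, a large-subunit protein with a bacterial counterpart. In Block it read 5.24 without and 4.72 with ActD at 5 min, 5.82 and 5.30 at 30 min, and 5.62 and 5.12 at 60 min. Among BiC/4AP arrays it read 5.38 and 5.36, 5.63 and 5.33, and 5.49 and 5.34. The array with ActD was lower in 6 of 6 pairs, a direction shared by all pairs in 1.44% of all spots, and the difference was -0.33 (SE 0.11, adjusted p = 0.999 in limma). MRPS6 differed by -0.32, MRPL30 by -0.22, MRPL15 by -0.21 and MRPL38 by -0.19. The smallest p-values on the other side belonged to MRPL44, which has a domain like that of RNase III, at 0.18, MRPS35 at 0.14, the dimmer clones of MRPL51 at 0.17 and of MRPS2 at 0.14, and MRPL45 at 0.25.

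No member was called for ActD within Block or within BiC/4AP (0% of all spots each), at 5 min (0%), 30 min (0.0104%) or 60 min (0%), or for 60 min against 5 min (0%). Unadjusted p-values under 0.05 numbered 2, 0, 2, 2, 1 and 4 members in that order. Those of all 9600 spots numbered 239, 184, 527, 625, 298 and 767. At 30 min 43 of 67 members were below 0, with a median of -0.10, while the medians at 5 and 60 min were -0.00 and -0.01. MRPL32, a large-subunit protein that an inner-membrane protease trims before assembly, had the smallest p at 60 min and was picked after its values were seen. Of its 12 arrays, 2 were not above background, Block at 60 min and BiC/4AP + ActD at 30 min. It read 3.40 in Block and 3.93 in BiC/4AP at 60 min, and 4.78 and 5.17 with ActD. At 30 min the order was the other way, with 5.24 and 4.60 without and 4.50 and 4.10 with ActD. The ActD difference of MRPL32 at 60 min was 1.31 (SE 0.18), over 2 pairs, with an adjusted p of 0.891 in limma.

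Many more members were called between times than for activity or ActD. Between 30 and 5 min, 24 of 67 members were called in limma (35.8%, against 44.5% of all spots), 7 higher and 17 lower. Between 60 and 5 min, 23 were called (34.3%, against 36.6%), 6 higher and 17 lower. The members' shares were thus at or below the background. All spots were called higher in 20.1% and lower in 24.4% of cases for 30 min, with 16.2% and 20.5% for 60 min. The 2 comparisons share the 5 min arrays. In all, 30 spots of 28 genes were called at 30 or 60 min, of which 12 were lower at both times, 3 higher at both and 2 in opposite directions. Groups of 4 arrays did not overlap for 30 members in each comparison (42.3% and 40.7% of all spots).

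The split between higher and lower depended on how the arrays were scaled. At 30 min, higher and lower members numbered 14 and 11 with quantile normalization, 16 and 7 with median centring, 10 and 13 with cyclic loess, 15 and 10 with block medians subtracted, and 11 and 17 with the 10th percentile added before the log. At 60 min they numbered 9 and 5, 25 and 11, 7 and 8, 17 and 8, and 7 and 12 in the same order. At 60 min the counts of all spots were 1347 and 1112 with quantile normalization and 3928 and 1306 with median centring. They were 1122 and 1147 with cyclic loess, 2993 and 1141 with block medians and 2015 and 1857 with the added percentile. The median of all spots shifted by 0.29 (30 min) and 0.36 (60 min) with median centring, and by 0.22 and 0.24 with block medians. The members' median at 30 min was -0.18, against 0.01 for all spots, but 0.06 for both with quantile normalization. No direction of the family as a whole is therefore stated, and the members described first are those called under all 5 of these other scalings, 8 of 24 at 30 min and 4 of 23 at 60 min.

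Among these, 4 were lower at 30 min. In the sentences that follow, values are given for Block, BiC/4AP, Block + ActD and BiC/4AP + ActD, in that order. MRPS11, a small-subunit protein with a bacterial counterpart, read 7.08, 6.71, 7.11 and 7.03 at 5 min, 5.48, 5.75, 5.66 and 5.55 at 30 min, and 5.86, 5.60, 5.91 and 5.83 at 60 min. All 8 later arrays lay below all 4 at 5 min, with differences of -1.37 (SE 0.13, adjusted p = 0.000251) at 30 min and -1.18 (SE 0.13, adjusted p = 0.000399) at 60 min.

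The dimmer clone of MRPL28 read 6.86, 7.23, 7.01 and 6.86 at 5 min, 5.25, 5.95, 4.59 and 5.41 at 30 min, and 4.47, 5.71, 5.44 and 5.34 at 60 min. Its groups did not overlap either, with differences of -1.69 (adjusted p = 0.000931) and -1.75 (adjusted p = 0.00101) in limma. Its brighter clone, at 0.45 and 0.13, was not called at either time. MRPS6, also of the small subunit, read 5.74, 5.77, 5.58 and 5.78 at 5 min, 4.97, 5.02, 4.41 and 3.96 at 30 min, and 4.75, 4.80, 4.62 and 4.75 at 60 min. Its lowest array, of 30 min, was not above background. Its difference was -1.13 (SE 0.19) at 30 min and -0.99 (SE 0.19) at 60 min, and at 60 min it was called under 4 of the 5 other scalings.

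MRPL58 read 5.80, 5.31, 5.73 and 4.99 at 5 min, and no later array exceeded 4.12. Its 4 arrays above background were those of 5 min. The measured means were 5.46 at 5 min, 2.42 at 30 min and 2.43 at 60 min, and none of the 8 later arrays was above background. Set against the lowest signal above background on each later array, the 5 min level was at least 2.49-fold that at 30 min and at least 3.62-fold that at 60 min. These bounds were computed on the z-score scale only and were not tested. Under the 5 other scalings the measured differences ran from -3.50 to -1.13 at 30 min and from -3.52 to -1.28 at 60 min. The limma fit ran on the measured values, with adjusted p-values of 0.00607 and 0.00749.

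Also called under all 5 other scalings, 4 spots were higher at 30 min. The brighter clone of MRPS2, a small-subunit protein with a bacterial counterpart, read 8.20, 8.48, 8.34 and 8.36 at 5 min, 8.92, 9.22, 9.51 and 9.39 at 30 min, and 9.14, 9.57, 9.14 and 9.05 at 60 min. All later arrays lay above those of 5 min, by 0.92 (SE 0.14, adjusted p = 0.00149) and 0.88 (SE 0.14, adjusted p = 0.00232). The dimmer clone of MRPS2 read 6.64, 6.53, 6.75 and 6.76 at 5 min and 7.18, 6.88, 7.08 and 7.21 at 30 min, a difference of 0.42 (SE 0.13, adjusted p = 0.0286) that was not called in any of the 4 fits that left out a set of arrays.

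The dimmer clone of MRPL12, a stalk protein that also binds mitochondrial RNA polymerase, read 7.29, 7.30, 7.33 and 7.09 at 5 min and 7.88, 7.59, 7.95 and 8.02 at 30 min. MRPS18C, of the small subunit, read 5.35, 5.23, 5.41 and 5.72 at 5 min and 6.27, 5.95, 6.12 and 6.02 at 30 min. Their differences at 30 min were 0.61 (adjusted p = 0.00838) and 0.67 (adjusted p = 0.0117) in limma. At 60 min neither passed the threshold, and the dimmer clone of MRPL12 differed from 5 min by 0.35. Without 1 set of arrays, the smaller fits no longer called MRPL12 in 1 of 4 cases and MRPS18C in 2 of 4.

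**Figure D3:**
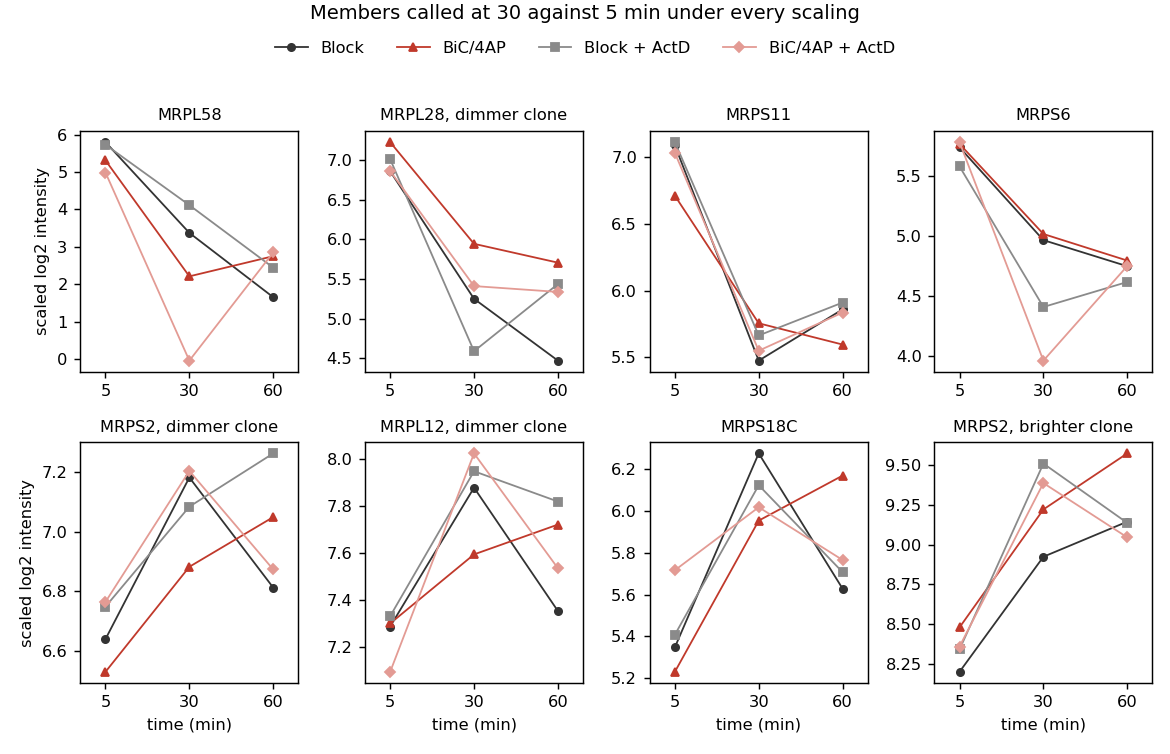
Scaled log2 intensity (vertical axes, each with its own range) against time for the 8 member spots called between 30 and 5 min under every scaling, with 1 line for each of Block, BiC/4AP, Block + ActD and BiC/4AP + ActD. The upper 4 spots are lower at 30 min in all 4 lines, MRPS11 by 1.37 on average, and the lower 4 are higher in all 4 lines, the brighter clone of MRPS2 by 0.92.

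Other members were called by the z-score but not under all 5 other scalings. At 60 min, MRPS23 and the dimmer clones of MRPS12 and MRPL24 were called under 0 of the 5. Lower at both later times were MRPL45 (-1.31 at 30 min and -1.27 at 60 min), which sits at the exit of the ribosomal tunnel by the inner membrane, and MRPL32 (-1.28 and -1.57). So were MRPS23 (-0.77 and -0.72), the dimmer clone of MRPL20 (-0.67 and -0.66), MRPL3 (-0.59 and -0.53), the brighter clone of MRPS30 (-0.56 and -0.64) and MRPS28 (-0.52 and -0.65). MRPS10 was lower by the z-score (-0.50 and -0.68), but higher with block medians subtracted (0.51 and 0.41, both past the threshold). MRPS23 was not above background on 1 array of 30 min.

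MRPS33 was higher at both times (0.89 and 0.71), as was MRPL37 (0.56 and 0.46). At 30 min MRPL13 was higher as well (0.64, with 4 of its 12 arrays not above background, 3 of them at 30 min). At 60 min alone, MRPL34 was higher (0.45), and MRPL44 (-0.63), the dimmer clones of MRPS12 (-0.47) and MRPL24 (-0.38), MRPL57 (-0.47) and MRPS18A (-0.33) were lower. The brighter clones of MRPS12 and MRPL24, at 0.11 and 0.18, were not called. The sign of MRPL57 turned with block medians (0.04) and that of MRPS18A with cyclic loess (0.01), neither past the threshold. MRPL15 and MRPL30 were called lower at 30 min but higher at 60 min (0.60 and 0.48), the 2 spots in opposite directions. Their calls at 60 min held under 2 and 1 of the 5 other scalings. They held in 0 of the 4 fits that left out a set of arrays. Of the members lower at 30 min, MRPL38 (-0.57), MRPL15, MRPL30 and the brighter clones of MRPL12 and MRPL4 are described next.

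The calls differed between levels of brightness. From the brightest to the dimmest 3200 spots, the members' median difference was 0.15, -0.18 and -0.26 at 30 min. At 60 min it was 0.33, -0.16 and -0.28. The medians of all spots had no steady order, at 0.31, -0.21 and -0.10 at 30 min and 0.27, -0.17 and -0.10 at 60 min. Of 17 members among the 3200 brightest spots, 4 were higher and 4 lower at 30 min, and 6 were higher and 0 lower at 60 min. Of 23 members among the 3200 spots of middle brightness, 2 were higher and 5 lower at 30 min, and 0 and 6 at 60 min. Of 27 among the 3200 dimmest, 1 was higher and 8 lower at 30 min, and 0 and 11 at 60 min. At 30 min, 35.6% of the 3200 brightest spots were called higher and 11.1% lower, against 9.22% and 34.7% of the middle and 15.5% and 27.5% of the dimmest spots. At 60 min these shares were 26.5% and 2.81%, 8.62% and 31.6%, and 13.3% and 27%. The part of brightness in the members' differences was not tested.

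Between 60 and 30 min, 6 members were called, all higher (8.96%, against 3.15% of all spots, 3.03% higher and 0.115% lower). All 6 are large-subunit spots. MRPL15, which has a bacterial counterpart, read 10.77, 10.22, 10.71 and 10.15 at 5 min, 9.43, 9.89, 9.46 and 9.39 at 30 min, and 11.56, 10.88, 11.04 and 10.77 at 60 min. It was thus lower at 30 min than at 5 min (-0.92), and its 30 min arrays lay below all others. It was higher at 60 min than at 30 min by 1.52 (SE 0.19, adjusted p = 0.00584 in limma). Its 5 and 60 min arrays nearly met, at 10.773 in Block at 5 min and 10.774 in BiC/4AP + ActD at 60 min.

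The brighter clone of MRPL12 read 9.85, 9.73, 9.94 and 9.68 at 5 min, 8.74, 9.50, 8.89 and 8.98 at 30 min, and 10.64, 10.21, 10.23 and 10.03 at 60 min. It differed by 1.25 (SE 0.19, adjusted p = 0.00892) between 60 and 30 min. MRPL30 read 10.90, 11.01, 11.10 and 10.88, then 10.50, 10.78, 10.26 and 10.22, then 11.88, 11.31, 11.30 and 11.31, a difference of 1.01 (SE 0.16, adjusted p = 0.0113). The brighter clones of MRPL4 and MRPL27 differed by 0.95 and 0.71, and MRPL38 by 0.58. Of the 6, 5 had been called lower at 30 min against 5 min, all but MRPL27. The dimmer clones of these genes were not called between 60 and 30 min. Against 5 min, that of MRPL12 differed by 0.61 at 30 min and 0.35 at 60 min, and that of MRPL27 by 0.31 and 0.17. These 2 were thus not lowest at 30 min, while the dimmer clone of MRPL4 was, at -0.65 and 0.16, neither called. That clone was above background on 9 of 12 arrays, and those not above it were all of 30 min.

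All 6 spots had their highest value of the 12 arrays in Block at 60 min, as did 12.1% of all spots, 17.9% of the members, and 82.8% of the 291 spots called higher between 60 and 30 min. Over the 12 arrays, Pearson's r between the 6 spots was 0.81 to 0.98 in 15 pairs (median 0.91), a description that shares the arrays that chose them. Without Block arrays lacking ActD, without Block arrays with ActD, or without BiC/4AP arrays with ActD, 0 members were called, and without the 5 min arrays 1 was. The brighter clone of MRPL12 and MRPL15 were called under all 5 other scalings.

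**Figure D4:**
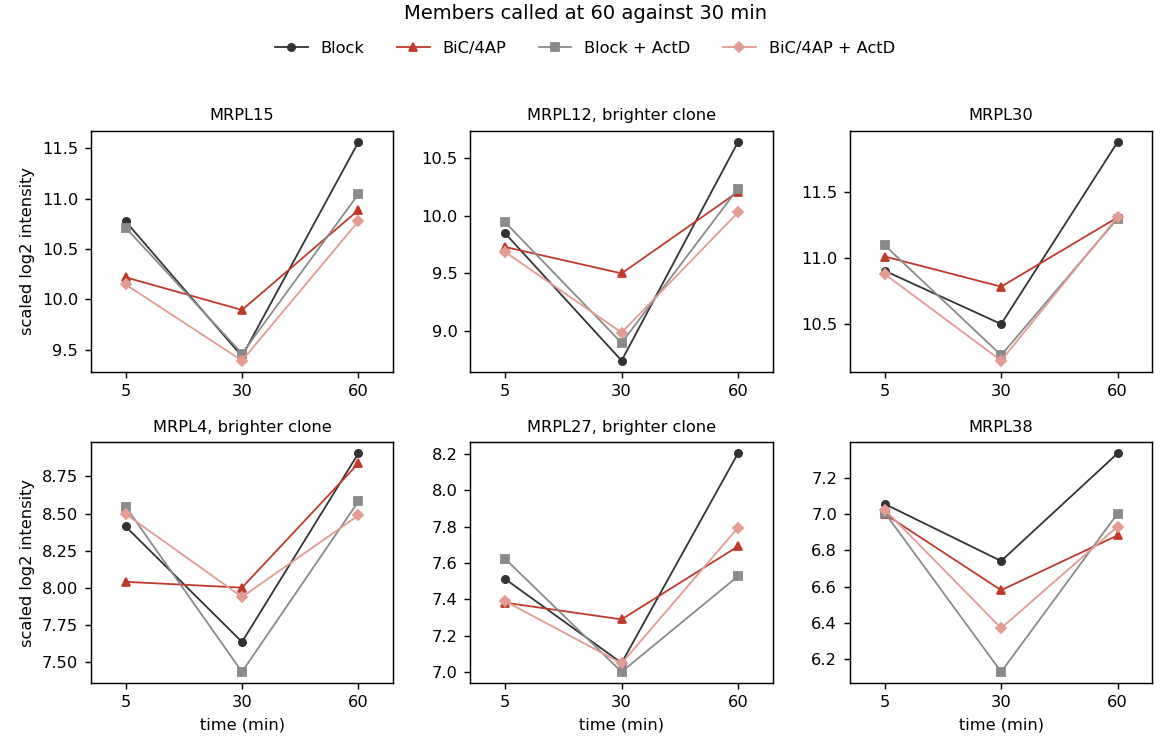
Scaled log2 intensity (vertical axes, each with its own range) against time for the 6 member spots called between 60 and 30 min, with 1 line for each combination of state and ActD. Every line is lowest at 30 min and the Block line without ActD is the highest at 60 min in all 6 panels, at 11.56 for MRPL15.

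The 12 genes with 2 clones give a check within a gene. The levels of the 2 clones differed by 0.04 (MRPL51) to 5.96 (MRPS12), with a median of 1.94, and by more than 1 in 8 genes. The clones had the same direction in 6 of 12 genes at 30 min, 8 at 60 min, 7 for activity and 6 for ActD. At 30 min both clones were called for MRPS2, both higher, and for MRPL12, with the brighter clone at -0.77 and the dimmer at 0.61. Only 1 clone was called in 4 further genes, and at 60 min in 6 genes, with both in 0. The 2 clones of MRPL28 lay at -1.69 and 0.45, and whether clones of a gene differ was not tested. A value of a spot is therefore that of its clone, and for the 43 genes with 1 spot no such check exists.

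**Figure D5:**
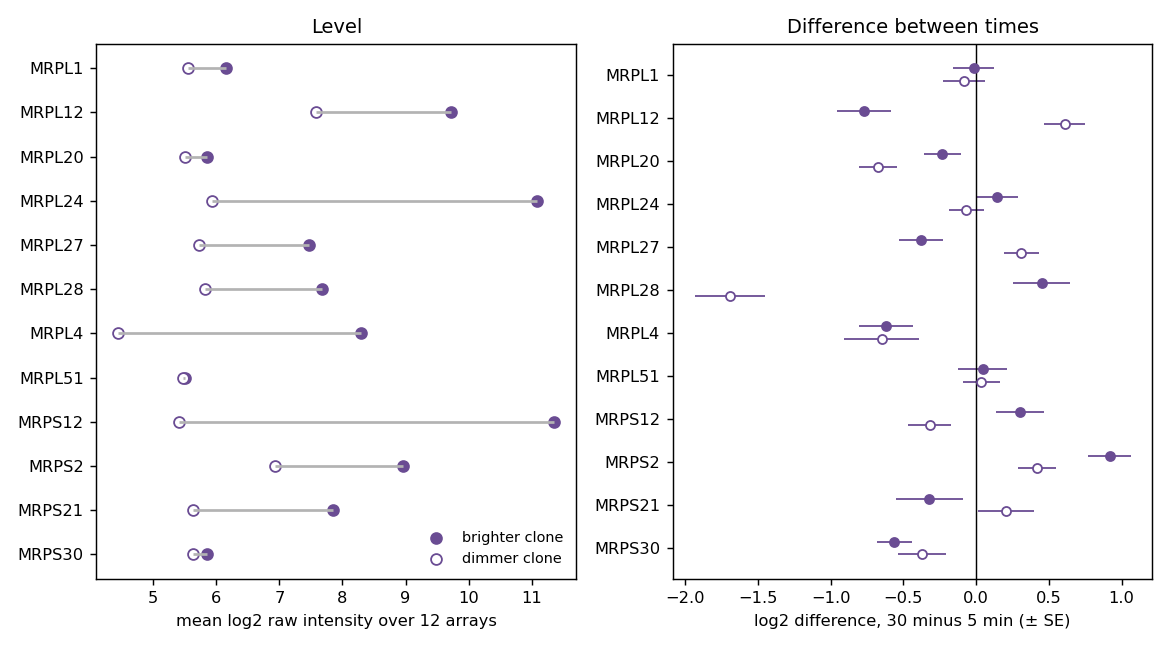
The 12 genes with 2 clones, with the mean log2 raw intensity over 12 arrays (left) and the log2 difference between 30 and 5 min with its SE (right), filled for the brighter and open for the dimmer clone. The levels differ most for MRPS12, by 5.96, and the time differences of MRPL12 and MRPL28 lie on opposite sides of 0.

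Related genes were described by the same counts, on the z-score scale unless another is named. Counts of all spots under each other scaling are those given above. The list of mitoribosome proteins without an MRP symbol, which also takes in the insertase OXA1L, held 6 spots of 5 genes. Of these spots, 0 were called for activity or ActD. DAP3, a GTP-binding small-subunit protein and the brightest of them (11.76), was higher by 1.08 at 30 min and 0.69 at 60 min, and PTCD3 by 0.71 and 0.57. OXA1L, the insertase that receives new proteins at the inner membrane, was lower at 30 min (-0.53). At 30 min, higher and lower spots of this list numbered 2 and 1 by the z-score. They numbered 3 and 0 with quantile normalization, 5 and 0 with median centring and 3 and 0 with cyclic loess. With block medians they were 4 and 1, and with the added percentile 3 and 1. The lower call of OXA1L was thus lost with quantile normalization, median centring and cyclic loess.

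Factors of mitochondrial translation and ribosome assembly held 48 spots of 34 genes. None was called for activity or ActD, 7 were higher and 18 lower at 30 min, 3 and 14 at 60 min, and 5 were higher at 60 against 30 min. These are 52.1%, 35.4% and 10.4% of the list, against 44.5%, 36.6% and 3.15% of all spots. At 30 min, higher and lower numbered 8 and 9 with quantile normalization, 15 and 7 with median centring, 8 and 9 with cyclic loess, 10 and 9 with block medians and 9 and 16 with the added percentile, so no direction is stated for this list. Among them MPV17L2, an assembly factor, differed by -1.54 at 30 min and -2.01 at 60 min, and MRM3, which methylates the large ribosomal RNA, by -1.30 at both. The 2 clones of MTRF1L, a release factor, went opposite ways, at -1.18 and 0.97 at 30 min. In the respiratory chain, 25 of 112 spots were higher and 13 lower at 30 min (33.9% called), with 54 and 8 under median centring and 50 and 5 under block medians. Of 152 cytoplasmic ribosomal protein spots, 73 were higher and 7 lower at 30 min, with a median of 0.56, against 20.1% and 24.4% of all spots. At 60 min 13 were higher and 2 lower (16.2% and 20.5% of all spots). Their split also moved with the scaling, to 32 and 14 at 30 min with quantile normalization, 105 and 2 with median centring, 17 and 16 with cyclic loess, 101 and 2 with block medians and 64 and 11 with the added percentile. Neither of these lists had a spot called for activity or ActD.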

How the data were processed

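The authors deposited raw spot intensity in 1 table for the 12 arrays, scanned with a phosphorimager and not normalised. A value table, also deposited, was identical in 115200 of 115200 values. Symbols came from the platform's probe annotation, joined on the spot number. It lists 8517 of 9600 spots, 8496 with 1 symbol, 21 with several (unnamed here) and 1083 not listed. As a check of this join, the mean log2 intensity of cytoplasmic ribosomal protein clones exceeded the overall mean by 2.01, and by -0.38 to 0.39 with the order shifted by up to 6 places.

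Values were put on the z-score scale of the study's methods. limma 3.58.1 in R 4.3.3 was fitted to all spots, with 6 pairs of arrays for activity and for ActD, and 4 sets for time. Arrays of a condition were not replicated, and their number limits the precision. The formula of the z-fold is not given in the sources used here, and its form was assumed. The labels give times as treatment length, whereas the study's methods have a short stimulus followed by harvests, and the label's time is used. Scripts were tested on simulated data.

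Members and lists were chosen with earlier results of these data known. Named are the spots past the threshold in a comparison, the 5 higher and 5 lower with the smallest p for activity, ActD and 60 against 5 min, the 5 brightest and 5 dimmest, every gene with 3 or more spots (0 genes) and co-regulated spots. Lists beside the members were named from symbols. Alternatives were other scalings (quantile, median centring, cyclic loess, block medians, an added offset), filters on spots, other models, gene means, the undivided z-fold and leaving out a pair or set of arrays. Promoter sequences are RefSeq's, build GRCr8.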

Additional observations from a re-analysis of the deposited data

How the results depend on the processing

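Arrays could not be paired by a replicate number, because each condition has 1 array. The pairs and sets used here match arrays by condition alone. Counts of the related lists under other scalings were added after seeing the data. Activity and ActD gave 0 called members under every alternative run. The members' median difference for activity was 0.0316 with block medians subtracted, and -0.0077 to 0.0278 when a pair of arrays was left out.

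At 30 against 5 min the members' median was 0.0627 with quantile normalization, 0.0989 with median centring, 0.0386 with cyclic loess, -0.0332 with block medians, -0.0539 with the offset, 0.0264 without the 3200 dimmest spots and -0.0747 without unannotated spots. At 60 against 5 min it was 0.0639, 0.262, 0.0757 and 0.152 for the first 4, 0.0912 without the dimmest spots and -0.112 with gene means. Counts of all spots under the other scalings are given above for 30 and 60 min. Members called at 60 against 5 min numbered 14 with quantile normalization, 36 with median centring and 15 with cyclic loess. They numbered 13 without the dimmest spots. At 60 against 30 min they numbered 3 with quantile normalization or block medians and, in an alternative chosen after seeing the data, 1 without the 5 min arrays. Without 1 set of arrays the counts were 12 to 22 at 30 against 5 min, 13 to 19 at 60 against 5 min and 0 to 4 at 60 against 30 min. The lowest of these came without Block with ActD (12 and 13), and without that set, Block without ActD or BiC/4AP with ActD (0). The calls kept under all alternatives numbered 5, 4 and 0. Time differences of named spots kept direction and side of the threshold in 556 alternative fits and lost the call in 202, and those for activity or ActD kept both in 345.

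Signs turned for MRPS10 with block medians (0.51 at 30 min, 0.41 at 60 min), MRPL57 with block medians (0.0413) and MRPS18A with cyclic loess (0.011), the last 2 at 60 min. Co-regulated members at 5 min numbered 3 with the offset or without the dimmest spots and 1 without unannotated spots, and at 30 min 2 without unannotated spots and 0 with undivided z-scores. Without the dimmest spots, the members' median level minus that of all spots was -0.115, and 40 members remained above background. The cause of these changes was not tested beyond what each setting removes. Signal limits MRPL58, above background on 4 of 12 arrays.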
